A study of Mus musculus with 56 samples.

Results

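The 10 genes described here make up a signalling route that runs from the testis to the start of the epididymis and the ERK pathway readouts that lie downstream of it. They are Nell2, Ros1, Ovch2, Ptpn6, Etv1, Etv4, Etv5, Dusp6, Spry2 and Spry4, taken by name from the 53379 genes of the count table, and all 10 were found in it under their own symbols. The data are bulk RNA-seq libraries of 7 regions of the male C57BL/6 mouse reproductive tract, taken in order from the sperm source outward: the testis, the efferent ductules, the initial segment of the epididymis, then its caput, its corpus and its cauda, and the vas deferens. Each region was sampled at 3 months (adult) and at 21 months (aged), with 4 libraries in each of the 14 groups and 56 in all, and no mouse carried an allele or received an agent. Per the study's methods, 4 mice were used at each age and the paired organs of a mouse were dissected into all regions, so regions of one age share mice while the ages do not.

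Lumicrine signalling is signalling through the lumen of a duct. NELL2 is a secreted protein of testicular germ cells that passes with the luminal fluid into the epididymis, where it binds ROS1, a receptor tyrosine kinase on the epithelial cells of the initial segment. ROS1 activity is needed for this segment to mature, and the mature epithelium secretes OVCH2, a protease that acts on the sperm surface protein ADAM3 and so bears on sperm fertility. PTPN6 (SHP-1) is a tyrosine phosphatase that can dephosphorylate ROS1 and is also a well-known phosphatase of leukocytes. Like other receptor tyrosine kinases, ROS1 can activate the kinase cascade that ends in MEK and ERK, whose transcriptional readouts include the PEA3 group of ETS transcription factors (ETV1, ETV4 and ETV5) and the inhibitors that feed back on the pathway, the ERK phosphatase DUSP6 and the Sprouty proteins SPRY2 and SPRY4.

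Library totals ran from 11125279 to 20561967 counts, with a median of 16384049. Levels along the tract are given in CPM, counts brought to a common library size, scaled over all 56 libraries, called the tract scale, and age comparisons in CPM scaled over the 8 libraries of a region, called the regional scale, on which the median gene changed with age by at most 0.033 in either direction (log2). Summed levels of several genes are on the tract scale throughout, also where ages are compared. There the median gene changed with age by -0.125 (initial segment) to 0.06 (vas deferens), as log2. The labelled tissues carried their markers: Prm1, a sperm nuclear protein, was at 2465 ± 144 CPM in the 3-month testis (SD, n = 4), and Aqp1, a water channel of the efferent ductules, was at 555.7 ± 47.2 CPM in the 3-month efferent ductules (SD, n = 4). Several libraries stood apart. In the 21-month efferent ductules, replicates 2 and 3 carried 6 markers of initial segment epithelium (Adam28, Cst8, Cst11, Lcn8, Lcn9 and Teddm1a) at a summed 953.9 and 424.6 CPM, against 0.965 and 2.09 CPM in replicates 1 and 4. Replicate 3 of the 3-month caput had 3787 CPM of the same 6 markers, against 1401 to 1618 CPM in the other 3 libraries. Replicate 3 of the 3-month cauda had a summed 2261 CPM over 20 leukocyte genes, against 360.3 to 386.3 CPM in the others, and in replicate 2 of the 3-month caput the gene Gm42418 took 49.7% of all counts, against 1.27% to 36.0% elsewhere. Antisense genes overlap Ovch2 (Gm45040) and Ptpn6 (Gm20531), and the strand setting of the counting is not given in the sources used here. Because the libraries are bulk tissue, fewer cells of a type and less RNA per cell cannot be told apart in any value below.

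**Figure D1:**
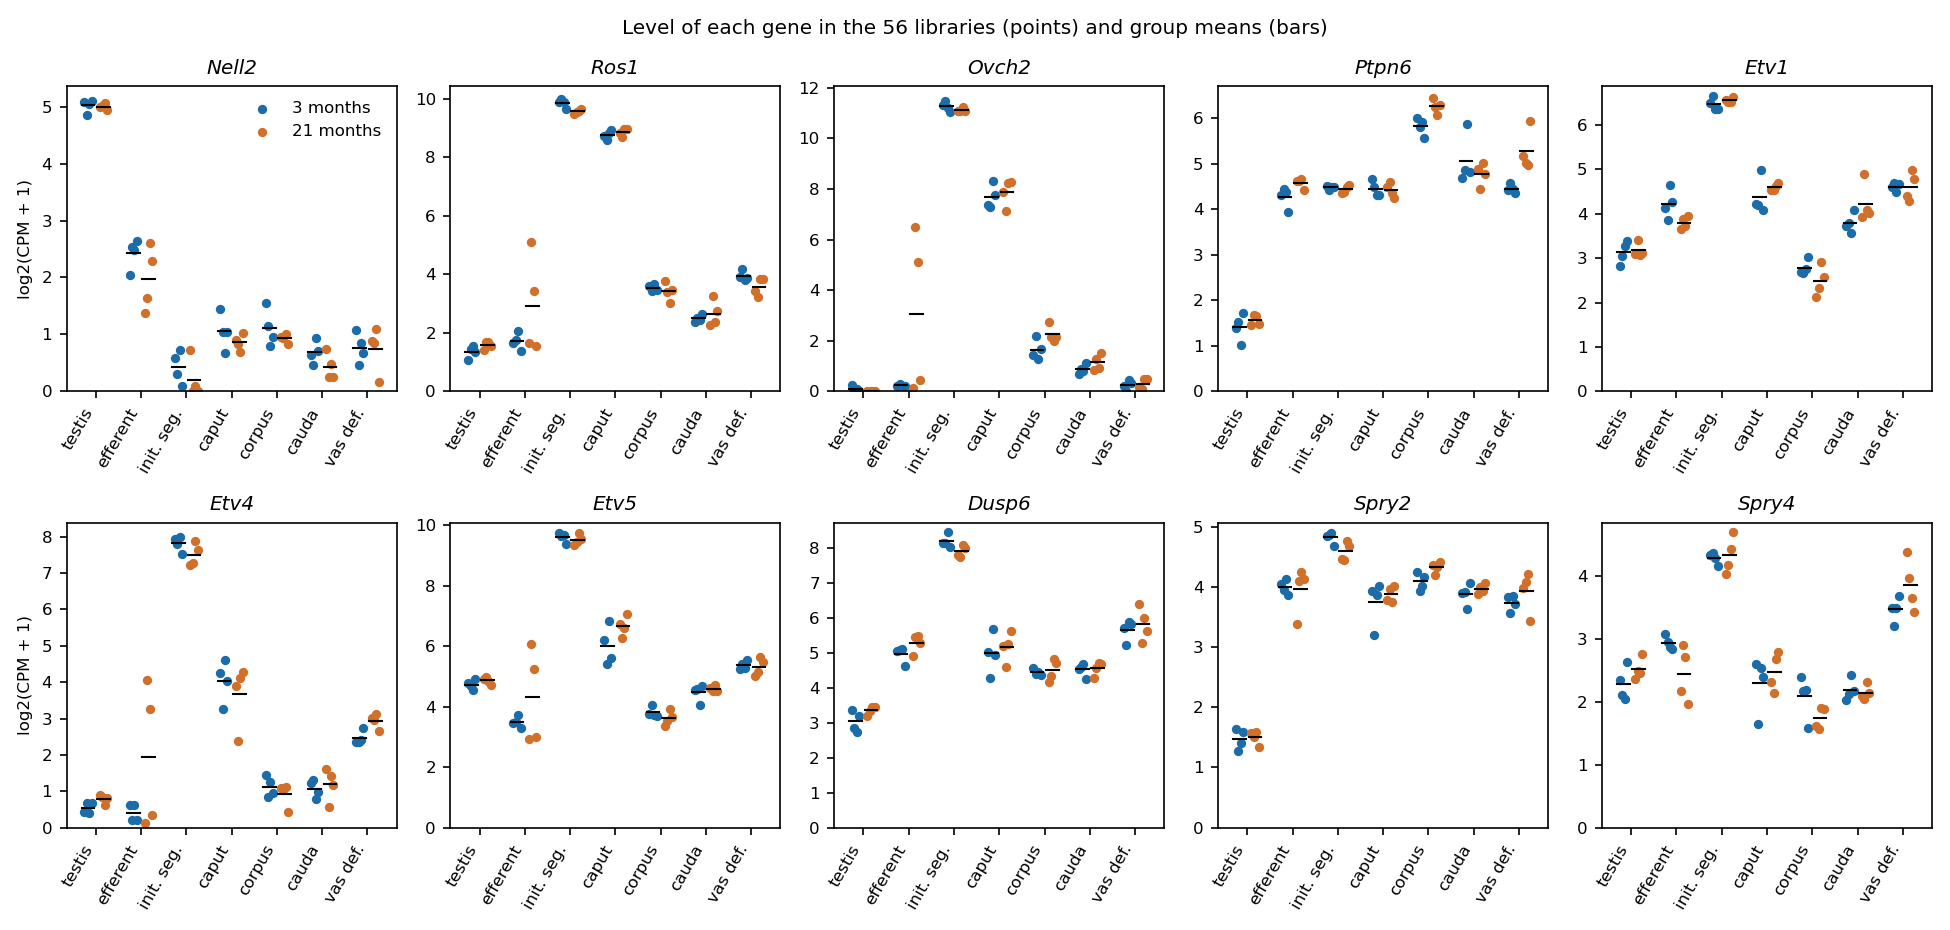
Level of each of the 10 genes in every library on the tract scale, as log2(CPM + 1), with 1 point per library, a bar at the mean of each group of 4, blue for 3 months and orange for 21 months. Nell2 is highest in the testis (28.2 to 33.6 CPM), Ptpn6 in the corpus (46.2 to 85.4 CPM) and the other 8 genes in the initial segment.

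Nell2, the ligand, was a testis transcript at both ages. It lies on chromosome 15 (GRCm38, 95075230 to 95528559, minus strand) and was counted at 32.9, 28.2, 32.0 and 33.6 CPM in the 3-month testis libraries. In the 21-month testis it was at 30.9, 31.3, 32.4 and 29.98 CPM, within the range of the younger libraries. The efferent ductules, next along the tract, held 3.13, 4.80, 4.60 and 5.22 CPM at 3 months, and the initial segment held 0.49995, 0.239, 0.662 and 0.0645 CPM, which is 1 to 11 counts per library. Against the mean of the other 6 regions on the log scale, testis Nell2 was higher by 4.87 ± 0.17 (log2 ± SE) at 3 months and by 5.30 ± 0.23 at 21 months (edgeR adjusted p = 2.11e-21 and 2.51e-19).

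The level in the efferent ductules was 14.021% of the testis level for Nell2 at 3 months and 10.2% at 21 months. A summed list of 20 germ cell genes stood at 1.74% and 1.70% of its testis level there. Testis was higher than the efferent ductules, and the efferent ductules higher than the next region, at both ages, whereas the neighbours among the remaining 5 regions did not differ beyond their spread in any of the steps at either age. One 3-month efferent ductule library, replicate 3, had a germ cell sum of 587.3 CPM against 266.7 to 287.1 CPM in the others, while its Nell2 value of 4.60 CPM lay within the range of the other 3.

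Ros1, the receptor, was concentrated in the initial segment and caput. The gene lies on chromosome 10 (GRCm38, 52045721 to 52195244, minus strand). Its initial segment levels at 3 months were 946.1, 1011, 933.1 and 790.4 CPM, its caput levels 420.6, 382.2, 453.1 and 479.7 CPM. The lowest initial segment library was therefore above the highest caput library, and both regions lay far above the vas deferens (14.4 ± 1.8 CPM, n = 4), corpus (10.7 ± 0.91), cauda (4.61 ± 0.41), efferent ductules (2.31 ± 0.62) and testis (1.57 ± 0.36, SD, n = 4). At 3 months all 6 steps of this order passed the test, so that every region differed from its neighbour in the order.

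Ovch2, the secreted protease named as the target of the route, had the highest level of the 10 genes in the initial segment, also per length of transcript (1266 ± 174 CPM per kb of exon at 3 months, against 118.3 ± 11.96 for Ros1 and 191.6 ± 20.9 for Etv5, SD, n = 4). It lies on chromosome 7 (GRCm38, 107781544 to 107801208, minus strand). The 4 initial segment libraries at 3 months held 2565, 2889.8, 2349 and 2089 CPM, and the 4 caput libraries 164.6, 154.7, 313.7 and 217.1 CPM. The corpus stood at 2.21 ± 0.93 CPM, and the testis, efferent ductules and vas deferens at between 0 and 0.346 CPM in every library, that is 0 to 7 counts. The initial segment mean was 11.6 times that of the caput, and the caput mean 96.3 times that of the corpus (both steps called). At 21 months no count of Ovch2 was seen in any of the 4 testis libraries, where 3 counts, the limit that a count of 0 allows, would be up to 0.165 CPM; the 21-month initial segment mean of 2223 CPM was at least 13475-fold higher than that limit, which covers counting error only.

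The 3 ETS factor genes shared the peak in the initial segment and differed in how far the other regions fell below it. In GRCm38, Etv1 lies on chromosome 12 (38779380 to 38870484, plus strand), Etv4 on chromosome 11 (101769742 to 101785371, minus strand) and Etv5 on chromosome 16 (22381309 to 22439719, minus strand). Etv5 was at 861.1, 802.4, 818.4 and 663.1 CPM in the 3-month initial segment and Etv4 at 245.8, 221.7, 254.1 and 184.3 CPM, whereas Etv1 was at 89.4, 99.8, 81.0 and 81.4 CPM. No library of another region came above 114.3 CPM for Etv5, 23.2 CPM for Etv4 or 31.0 CPM for Etv1 at that age, and each of these maxima was replicate 3 of the caput. The mean ratio to the next region down was 11.4 for Etv5, 13.9 for Etv4 and 3.75 for Etv1, the next region being the caput for the first 2 and the vas deferens for Etv1. In the 3-month testis Etv5 was at 25.7 ± 2.7 CPM, Etv1 at 7.87 ± 1.5 CPM and Etv4 at 0.464 ± 0.15 CPM (SD, n = 4).

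The feedback genes also peaked in the initial segment. Dusp6, the ERK phosphatase, on chromosome 10 (GRCm38, 99263231 to 99267489, plus strand), was at 280.3, 281.9, 345.9 and 258.9 CPM in the 3-month initial segment and at 50.1 ± 9.4 CPM in the vas deferens, the next region (ratio 5.82). Spry2, on chromosome 14 (GRCm38, 105891947 to 105896819, minus strand), was at 27.7, 28.1, 28.6 and 24.7 CPM in the initial segment, 1.69 times the corpus mean, with the 5 regions from efferent ductules to vas deferens other than the initial segment between 12.4 and 16.1 CPM and not separable step by step. Spry4, on chromosome 18 (GRCm38, 38586247 to 38601415, minus strand), was at 19.1, 19.6, 18.5 and 16.8 CPM, 1.82 times the vas deferens mean of 10.2 ± 1.5 CPM. For each of the 3 genes the lowest initial segment library at 3 months was above the highest library of any other region (258.9 against 57.3 CPM for Dusp6, 24.7 against 18.02 for Spry2 and 16.8 against 11.9 for Spry4). At 21 months this held for Dusp6 (211 against 83.2 CPM) and narrowly for Spry2 (20.7 against 20.3), but not for Spry4 (15.3 against 19.9). The share of all genes set apart in this way is not given here.

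Ptpn6, the phosphatase, on chromosome 6 (GRCm38, 124720707 to 124738714, minus strand), did not follow the others. Its highest level was in the corpus at both ages, 62.9, 54.7, 59.2 and 46.2 CPM at 3 months, and the initial segment libraries, at 21.9, 20.3, 21.5 and 21.6 CPM, lay among those of the caput (18.8 to 24.4 CPM) and vas deferens (19.6 to 22.6 CPM). The testis was the lowest region, at 1.70 ± 0.52 CPM (SD, n = 4). In the cauda, replicate 3 at 57.0 CPM stood over the other 3 at 24.9 to 28.2 CPM; it is the library with the leukocyte sum of 2261 CPM, and the part of leukocytes in that value was not tested.

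To show the sequence in front of genes that were high together in the initial segment, the promoters of the receptor, the protease, 1 ETS factor and 1 feedback gene are printed from RefSeq (GRCm38.p6), each from 250 bases before the transcript start to 30 bases after it, 5′ to 3′ on the gene's own strand. RefSeq has a further Etv5 promoter, nearer the annotated gene start, which holds no match to the letters searched. Capitals mark AGGAAG, letters that hold the core of sites bound by ETS factors, or CTTCCT, its reverse complement.
Ros1, chr10:52195215-52195494, minus strand: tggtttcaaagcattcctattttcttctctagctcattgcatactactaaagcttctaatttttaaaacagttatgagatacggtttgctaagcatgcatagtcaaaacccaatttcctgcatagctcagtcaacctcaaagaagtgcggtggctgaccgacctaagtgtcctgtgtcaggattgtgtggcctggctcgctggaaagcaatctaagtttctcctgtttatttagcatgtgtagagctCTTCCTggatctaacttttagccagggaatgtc
Ovch2, chr7:107801150-107801429, minus strand: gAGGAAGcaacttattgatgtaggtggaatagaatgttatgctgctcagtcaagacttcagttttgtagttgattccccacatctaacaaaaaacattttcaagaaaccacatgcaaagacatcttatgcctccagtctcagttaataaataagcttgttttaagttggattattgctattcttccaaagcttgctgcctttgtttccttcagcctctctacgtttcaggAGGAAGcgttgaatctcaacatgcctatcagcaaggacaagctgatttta
Etv5, chr16:22438339-22438618, minus strand: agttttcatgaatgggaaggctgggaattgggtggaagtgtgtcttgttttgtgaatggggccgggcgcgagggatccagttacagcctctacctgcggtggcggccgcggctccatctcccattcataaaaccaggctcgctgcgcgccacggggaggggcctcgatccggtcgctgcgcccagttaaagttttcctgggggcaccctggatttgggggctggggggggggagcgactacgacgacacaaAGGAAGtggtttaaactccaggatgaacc
Dusp6, chr10:99262981-99263260, plus strand: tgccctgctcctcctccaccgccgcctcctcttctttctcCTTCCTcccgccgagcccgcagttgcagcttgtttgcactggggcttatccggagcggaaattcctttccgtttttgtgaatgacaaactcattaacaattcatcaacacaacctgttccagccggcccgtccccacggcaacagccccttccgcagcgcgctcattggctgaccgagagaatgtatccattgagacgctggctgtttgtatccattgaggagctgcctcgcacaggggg

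Promoters of 300 bases were matched for 7 of the 10 genes, 9 promoters in all. AGGAAG, searched on both strands, was in 6 of the 9 and in 35.4% of the 32851 mouse promoters of that length. CCGGAA, another sequence bound by ETS factors and also searched on both strands, was in 1 of the 9, that of Spry2, and in 14.9% of all promoters (both sequences hold GGAA). The matches are letters in a window and were not tested as binding sites.

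Against the mean of the other 6 regions at 3 months, 8 of the 10 genes were higher in the initial segment, Nell2 was lower and Ptpn6 did not pass the test. Over all genes tested, 21.7% were higher and 18% lower in this comparison (39.7% called), and the median log2 difference was 3.19 for the 10 genes against -0.15 for all genes. Ovch2 was higher by 11.29 ± 0.14, Etv4 by 7.14 ± 0.12, Ros1 by 6.498 ± 0.067, Etv5 by 5.02 ± 0.11 and Dusp6 by 3.64 ± 0.11 (log2 ± SE, edgeR). Etv1 at 2.74 ± 0.10, Spry4 at 1.92 ± 0.13 and Spry2 at 1.46 ± 0.09 had smaller differences. Nell2 was lower by 2.50 on the log2 scale (SE 0.35), and Ptpn6 was at 0.31 ± 0.15 (edgeR adjusted p = 0.116). Leaving out the leukocyte-rich cauda library gave Ptpn6 a log2 difference of 0.38 (edgeR adjusted p = 0.00277), although on the linear scale the initial segment mean of Ptpn6 was 0.842 of the mean of the other regions, since the testis level weighs more on the log scale.

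At 21 months the same 8 genes were higher, Nell2 was lower and Ptpn6 again did not pass (24.4% of all genes were higher and 19.7% lower, 44.1% called). The standard errors of the log2 differences were wider for genes seen in replicates 2 and 3 of the efferent ductules: 5.93 ± 0.25 for Ros1, 10.24 ± 0.50 for Ovch2, 6.16 ± 0.31 for Etv4 and 4.72 ± 0.22 for Etv5. Without these libraries the differences were 6.36 for Ros1, 11.40 for Ovch2, 7.01 for Etv4 and 5.07 for Etv5. The Ovch2 value also rests on a testis group with no counts, so its fitted size depends on the prior count. Etv1 at 2.99 ± 0.11, Dusp6 at 3.31 ± 0.12, Spry2 at 1.26 ± 0.11 and Spry4 at 2.17 ± 0.15 had errors close to those of the young mice.

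**Figure D2:**
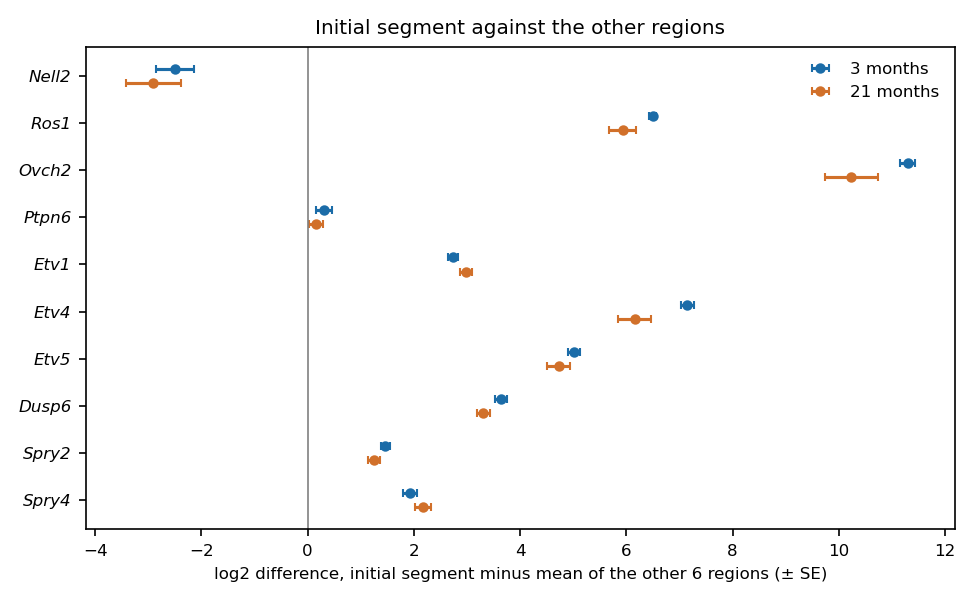
Log2 difference between the initial segment and the mean of the other 6 regions for each gene, with bars of ± 1 SE from the edgeR fit, at 3 months (blue) and 21 months (orange). At 3 months 8 genes lie right of zero by 1.46 to 11.29, Nell2 lies at -2.50, and Ptpn6 lies nearest to zero at 0.31.

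The caput adjoins the initial segment. At 3 months Ros1 was higher in the initial segment than in the caput by 0.99 ± 0.11 and Spry2 by 0.999 ± 0.131, Etv1 by 2.001 ± 0.163 and Spry4 by 2.05 ± 0.21, against 3.45 ± 0.21 for Ovch2, 3.69 ± 0.20 for Etv4, 3.42 ± 0.19 for Etv5 and 3.07 ± 0.19 for Dusp6 (log2 ± SE, edgeR). In all, 8 of the 10 genes were higher and Nell2 lower in the initial segment than in the caput at 3 months, beside 12.8% of all genes higher and 15% lower (27.8% called). At 21 months 7 were higher and Nell2 lower (14.8% and 14.9% of all genes, 29.7% called), the one no longer called being Ros1 at 0.81 ± 0.40 (edgeR adjusted p = 0.14). The Nell2 calls rest on 0 to 11 counts in each initial segment library, and were lost without the libraries numbered 4 at 3 months and without those numbered 2, 3 or 4 at 21 months. The 4 initial segment libraries of Ros1, at 714.9, 743.0, 768.8 and 792.2 CPM, all lay above its 4 caput libraries, at 448.4, 407.3, 495.1 and 500.8 CPM. Without replicates 2 and 3 of the 21-month efferent ductules, which share the estimate of the spread, the same contrast for Ros1 was 0.81 with an edgeR adjusted p of 0.000143.

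At 3 months Nell2 was higher and the other 9 genes lower in the testis than the mean of the other 6 regions on the log scale, beside 44.1% of all genes higher and 33.8% lower (77.9% called). At 21 months the split was the same, beside 43.1% higher and 34.4% lower of all genes (77.5% called). The lower calls ran at 3 months from -6.58 ± 0.48 for Ovch2 through -4.32 ± 0.13 for Ros1, -4.06 ± 0.23 for Ptpn6 and -3.22 ± 0.14 for Spry2 to -0.85 ± 0.15 for Etv5 and -0.79 ± 0.17 for Spry4 (log2 ± SE, edgeR). A lower call against this mean does not place the testis below every region: testis Etv5, at 25.7 CPM, ranked above the cauda (21.6 CPM), corpus (13.1 CPM) and efferent ductules (10.3 CPM), though the step to the cauda did not pass the test. The 2 smallest rest on the scaling at 21 months: Spry4 at -0.50 ± 0.19 (edgeR adjusted p = 0.0172) moved to -0.05 with DESeq2 size factors (edgeR adjusted p = 0.86), and Etv5 at -1.07 ± 0.31 moved to -0.62 (edgeR adjusted p = 0.0591), while the median of all genes in the comparison rose from 0.10 to 0.53.

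Along the tract, the order of the 7 regions was fixed for each gene by its mean CPM and each step was tested. Of the 60 steps between neighbouring regions over the 10 genes, 35 differed at 3 months and 25 at 21 months. The order came from the same libraries as the tests, and the share of such steps over all genes is not given here. The initial segment came first for 8 genes at both ages. At 21 months its step to the next region was near the threshold for Spry2 and Spry4 (edgeR adjusted p = 0.0416 and 0.0394) and did not pass for Ros1 (edgeR adjusted p = 0.14). Below the top region the second place was held by the caput for Ros1, Ovch2, Etv4 and Etv5, by the vas deferens for Etv1, Dusp6 and Spry4, and by the corpus for Spry2, at both ages. At 21 months the step from this place to the next did not pass for Etv1, Etv4 or Spry2 (edgeR adjusted p = 0.982, 0.153 and 0.104). For Etv1 the vas deferens, caput and efferent ductules did not differ from one another step by step at 3 months, and for Dusp6 the caput and efferent ductules did not.

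With age, none of the 10 genes was called in the initial segment, where 6.36% of all genes were called. On the regional scale Ros1 was at 953.1, 942.9, 926.5 and 802.2 CPM at 3 months and at 755.5, 827.5, 841.4 and 857.4 CPM at 21 months. Its 3 highest young libraries were above all aged ones and the fourth was among them, and the log2 fold change was -0.14 ± 0.07 (SE, edgeR adjusted p = 0.33). Ovch2 was at 2584, 2695, 2332 and 2120.2 CPM in the young and 2299.9, 2396, 2616 and 2354 CPM in the aged initial segment, overlapping ranges with a log2 fold change of -0.01 ± 0.08 (edgeR adjusted p = 0.973).

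The ETS factors and feedback genes of the initial segment gave values near zero as well. Etv5 went from 775.4 ± 83.8 to 803.4 ± 101.7 CPM and Etv4 from 223.4 ± 31.7 to 200.2 ± 46.2 CPM on the regional scale (SD, n = 4), with log2 fold changes of 0.05 ± 0.10 and -0.16 ± 0.14. Dusp6 was at -0.15 ± 0.10, Spry2 at -0.10 ± 0.10, Spry4 at 0.21 ± 0.13 and Ptpn6 at 0.09 ± 0.09 (log2 ± SE). Etv1 came closest to the threshold: its 4 aged libraries (98.5, 101.3, 99.6 and 107.1 CPM) all lay above its 4 young ones (90.0, 93.0, 80.4 and 82.6 CPM) on the regional scale, as did those of 6.42% of all genes tested in this region. On the tract scale the ages overlapped, at 81.0 to 99.8 CPM in the young and 91.0 to 98.9 CPM in the aged libraries. The log2 fold change of Etv1 was 0.23 ± 0.07 (SE, edgeR adjusted p = 0.0577) on the regional scale and 0.09 with all 56 libraries in one fit (edgeR adjusted p = 0.92). Etv1 was the only one of the 10 with an unadjusted p under 0.05 in this region, and DESeq2 called it alone (0.24, adjusted p = 0.0265). The median log2 fold change was -0.05 for the 10 genes and -0.01 for all genes.

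The change with age in the initial segment was also set against the mean change of the other 6 regions. None of the 10 genes was called in this test of the difference, in which 1.9% of all genes were called. The lowest edgeR adjusted p was 0.245, for Etv4, at a log2 difference of -1.14 ± 0.47, and 4 of the 10 genes had an unadjusted p under 0.05 (Ros1, Etv4, Dusp6 and Spry2). The share of all genes at that unadjusted threshold is not given here, and the 1.9% is not its match. DESeq2 called none of them either. Without replicates 2 and 3 of the 21-month efferent ductules the difference went to -0.28 for Etv4 (unadjusted p = 0.43 in edgeR's quasi-likelihood test across all genes) and from -0.72 to -0.29 for Ros1 (unadjusted p = 0.0952), while Dusp6 went from -0.48 to -0.44 and Spry2 from -0.35 to -0.32. For Ovch2 the difference could not be estimated, since the 21-month testis held no counts.

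**Figure D3:**
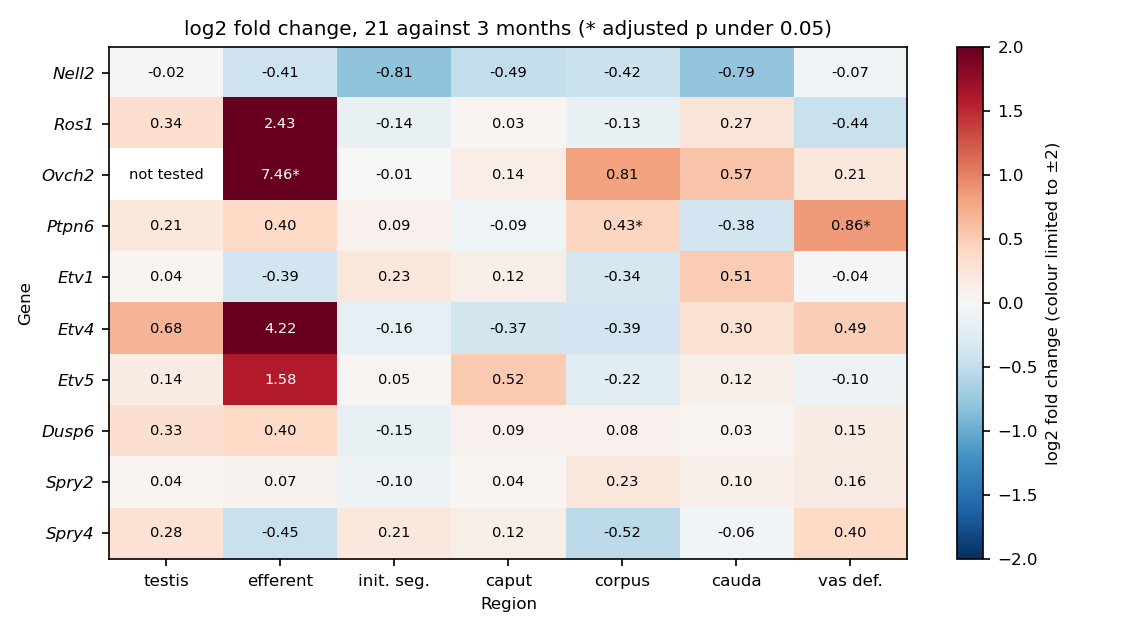
Log2 fold change from 3 to 21 months for each gene (rows) in each region (columns), with the value printed in each cell, colour limited to ± 2 and an asterisk on values with an edgeR adjusted p under 0.05. The asterisks stand on 3 of the 69 tested cells: Ovch2 in the efferent ductules (7.46) and Ptpn6 in the corpus (0.43) and vas deferens (0.86).

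In the efferent ductules, Ovch2 was the only one of the 10 genes called with age, where 6.99% of all genes were called (4% higher and 2.98% lower). On the tract scale its 21-month libraries held 0.0877, 88.6, 33.2 and 0.364 CPM, against 0.159, 0.211, 0.164 and 0.152 CPM at 3 months. Replicates 2 and 3, with 1603 and 541 counts, stood far above the young libraries, which had 3 or 4 counts each, while replicates 4 and 1 had 4 counts and 1 count. The log2 fold change was 7.46 ± 1.70 (SE, edgeR adjusted p = 0.0294) and fell to 0.50 without replicates 2 and 3 (edgeR adjusted p = 0.707). Without any 1 of the 4 young libraries it was 7.38 to 7.58 and the call was lost (edgeR adjusted p = 0.0772 to 0.107), and edgeR's filterByExpr left Ovch2 untested. DESeq2 called 5 of the 10 genes, Ovch2, Ros1, Etv4, Ptpn6 and Dusp6. The share of all genes that DESeq2 called in this region is not given here, so this count has no matching share.

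Ros1, Etv4 and Etv5 were high in the same pair of libraries, whereas Etv1, at 11.6, 13.8, 12.2 and 14.4 CPM in aged replicates 1 to 4 against 13.5 to 23.97 CPM in the young libraries, was not. Ros1 was at 2.11, 33.6, 9.70 and 1.91 CPM in the 21-month efferent ductules, Etv4 at 0.0877, 15.8, 8.53 and 0.273 CPM, and Etv5 at 6.67, 66.8, 37.4 and 6.92 CPM. The young libraries held 1.62 to 3.12 CPM of Ros1, 0.152 to 0.547 CPM of Etv4 and 8.82 to 12.2 CPM of Etv5, so that replicates 2 and 3 were above all of them for each gene, and replicates 1 and 4 were below all of them for Etv5. None of these 3 passed the threshold in edgeR (edgeR adjusted p = 0.0777 for Ros1, 0.0532 for Etv4 and 0.132 for Etv5).

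As a share of the 21-month initial segment mean, replicate 2 held 3.98% for Ovch2, 4.45% for Ros1, 8.59% for Etv4 and 9.04% for Etv5, and replicate 3 held 1.49%, 1.28%, 4.64% and 5.07%. The 6 markers of initial segment epithelium stood at 1.11% to 5.84% in replicate 2 and 0.670% to 2.68% in replicate 3, and at no more than 0.0516% in replicates 1 and 4. In the young libraries each of these 6 markers was at 0 to 1.32 CPM, and Adam28, Cst11 and Lcn9 had under 10 counts in all outside aged replicates 2 and 3, through which they entered the age test. The seventh marker of the list, Lcn2, was at 628.9 to 913.2 CPM in all 4 aged libraries. It was high in the young libraries too, where all 7 markers summed to 572.9 to 672.5 CPM and the 6 without Lcn2 to 1.01 to 2.12 CPM. The part of initial segment tissue in the change of Ovch2 was not tested, and the change is small without these libraries, as given above.

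Leaving out replicates 2 and 3 also turned the direction of Etv5, from 1.58 ± 0.60 to -0.45 (edgeR adjusted p = 0.0403), and brought Spry4, at -0.45 ± 0.23 with all libraries, to -0.90 (edgeR adjusted p = 0.00802). These values compare 2 aged libraries with 4 young ones, in a fit that called 6744 genes, against 1813 with all libraries. On the tract scale Spry4 was at 3.51 and 2.91 CPM in replicates 1 and 4, below the young range of 6.13 to 7.43 CPM, and at 6.46 and 5.52 CPM in replicates 2 and 3.

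**Figure D4:**
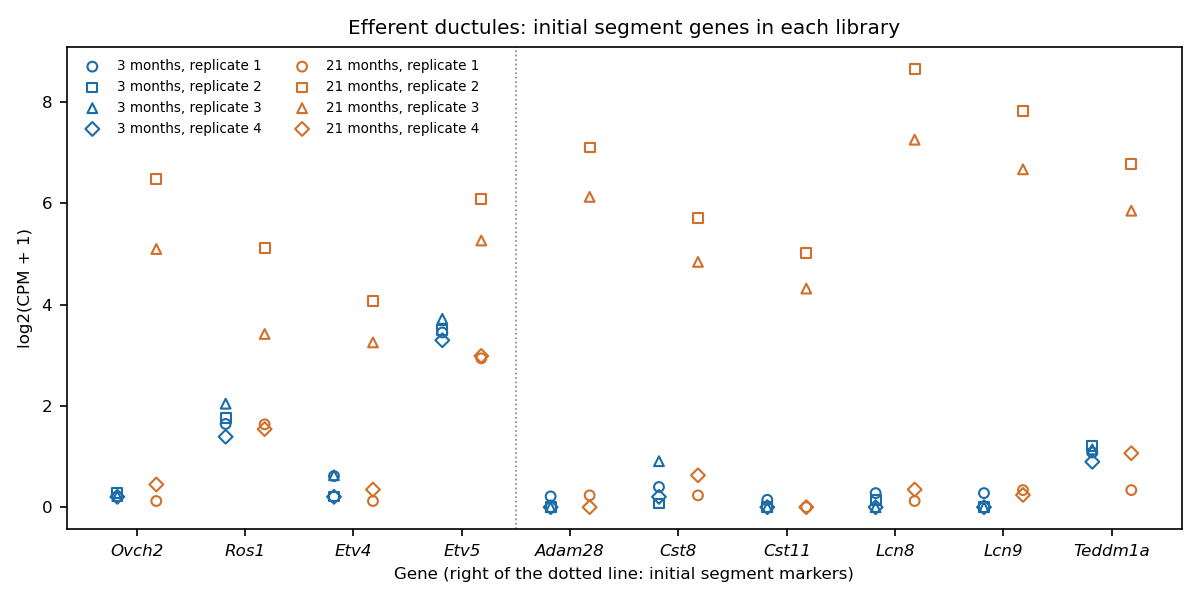
Levels of 4 of the genes and of 6 initial segment markers in the 8 efferent ductule libraries, as log2(CPM + 1) on the tract scale, with 1 symbol shape per replicate number, blue for 3 months and orange for 21 months. The orange squares and triangles (replicates 2 and 3) stand above all other libraries for every gene shown, for Ovch2 at 88.6 and 33.2 CPM against at most 0.364 CPM.

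Ptpn6 was the gene that changed with age outside the proximal tract. In the corpus it was at 52.5, 43.9, 45.6 and 39.0 CPM at 3 months and 66.6, 61.0, 56.4 and 59.2 CPM at 21 months on the regional scale, with no overlap between the ages, as for 4.93% of all genes, higher at 21 months, in the region, and it was called at a log2 fold change of 0.43 ± 0.10 (SE, edgeR adjusted p = 0.0311; 2.97% of all genes called). The summed leukocyte genes of the corpus were at 235.9 to 322.6 CPM at 3 months and 264.9 to 315.1 CPM at 21 months, and 1 of the 20 leukocyte genes was called higher there, as were 1.5% of all genes. The call was lost without 1 of 5 libraries, with edgeR adjusted p values of 0.0972, 0.093 and 0.0735 without aged replicate 1, 2 or 4 and of 0.0861 and 0.0923 without young replicate 2 or 3, although the log2 fold change stayed at 0.38 to 0.45 in these 5 fits, and it was also lost with library size in place of TMM (log2 fold change 0.27, edgeR adjusted p = 0.634), with all 56 libraries in one fit (0.44, edgeR adjusted p = 0.336) and under a rule that asks for a 1.5-fold change.

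In the vas deferens Ptpn6 was at 25.4, 27.5, 25.2 and 24.4 CPM at 3 months and at 42.7, 36.9, 33.4 and 72.9 CPM at 21 months on the regional scale. The ages did not overlap, as for 12.9% of all genes higher at 21 months in this region. The log2 fold change was 0.86 ± 0.21 (SE, edgeR adjusted p = 0.0167), and 19.9% of all genes were called (11.4% higher). Without young replicate 4 the log2 fold change was 0.84 and the call was lost (edgeR adjusted p = 0.0531). Here 16 of the 20 leukocyte genes rose, with the sum going from 202.0 to 257.1 CPM at 3 months to 309.9, 385.1, 422.5 and 731.6 CPM at 21 months, and replicate 4, highest in Ptpn6, had the highest sum. The part of leukocytes in the change of Ptpn6 was not tested.

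The ages also did not overlap for Ptpn6 in the efferent ductules, 16.6 to 23.7 CPM at 3 months against 24.2 to 29.2 CPM at 21 months on the regional scale, as for 7.89% of all genes there. The log2 fold change of 0.40 ± 0.13 did not pass the threshold (edgeR adjusted p = 0.0816), and 11 of 20 leukocyte genes rose (4% of all genes were called higher), their sum going from 265.2 to 286.1 CPM to 443.7 to 560.5 CPM. In the initial segment 10 of 18 tested leukocyte genes rose, beside 3.35% of all genes, with sums of 245.5 to 259.0 CPM at 3 months and 286.2 to 376.3 CPM at 21 months, beside a Ptpn6 log2 fold change of 0.09 ± 0.09.

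**Figure D5:**
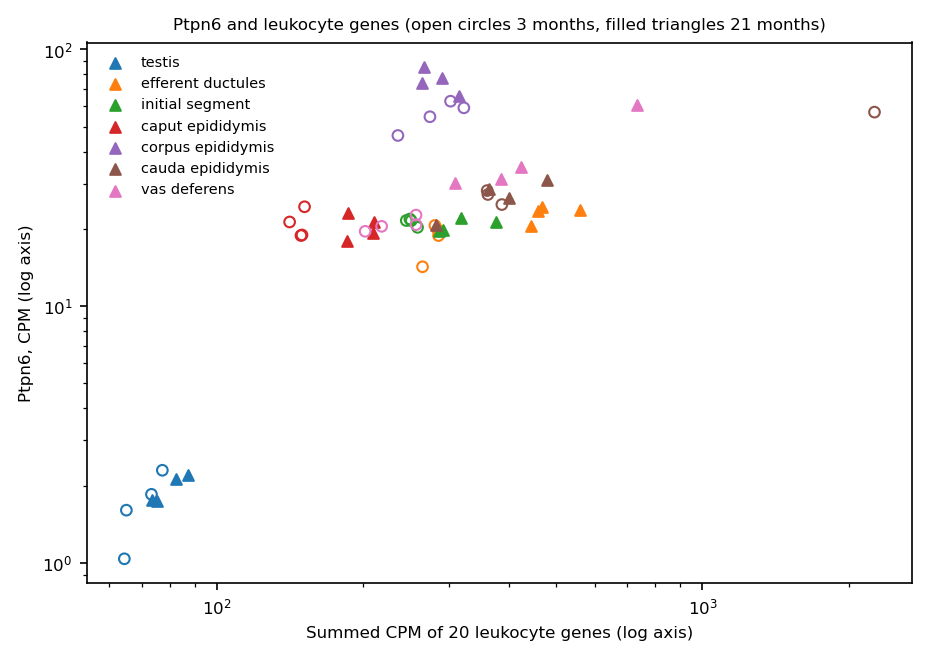
Ptpn6 against the summed CPM of 20 leukocyte genes in the 56 libraries, both on log axes and on the tract scale, coloured by region, with open circles for 3 months and filled triangles for 21 months. The corpus libraries hold 46.2 to 85.4 CPM of Ptpn6 at leukocyte sums of 235.9 to 322.6 CPM; a young cauda library (57.0 CPM, sum 2261 CPM) and an aged vas deferens library (60.5 CPM, sum 731.6 CPM) lie in the same Ptpn6 range.

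In the remaining regions no gene of the 10 was called with age: 0 of 9 tested in the testis (0.563% of all genes called), 0 of 10 in the caput (8.14%) and 0 of 10 in the cauda (0.128%), by edgeR. At an unadjusted p under 0.05 the count was 1 in the testis, Dusp6 at 0.33 ± 0.14, and 0 in both the caput and the cauda, and DESeq2 called none in any of the 3 regions. Nell2 in the testis, the source of the ligand, had a log2 fold change of -0.02 ± 0.07 (edgeR adjusted p = 0.952). Ovch2 in the testis had under 10 counts over the 8 libraries and was not tested.

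In the caput Etv5 was at 67.0, 47.5, 111.2 and 45.9 CPM at 3 months and 100.1, 75.0, 90.2 and 125.5 CPM at 21 months on the regional scale. The aged libraries lay above 3 of the 4 young ones, and the fourth, replicate 3, was the young library with the most initial segment markers. The log2 fold change was 0.52 ± 0.24 (SE, edgeR adjusted p = 0.206) and without that replicate it was 0.86 (edgeR adjusted p = 0.0231). The same 6 markers summed to 2297 to 3649 CPM in the 4 aged caput libraries. In the corpus Ovch2, at 1.10 to 2.83 CPM at 3 months and 2.59 to 4.396 CPM at 21 months on the regional scale, was at 0.81 ± 0.29 (edgeR adjusted p = 0.159). In the vas deferens Ros1 at -0.44 ± 0.16 and Etv4 at 0.49 ± 0.17 did not pass (edgeR adjusted p = 0.0746 and 0.0652), and without the leukocyte-rich aged replicate 4 both did, at -0.55 and 0.58 (edgeR adjusted p = 0.024 and 0.0252).

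The wider pathway was read from 3 lists, one of the ERK cascade, one of other ERK target and feedback genes, and one of other lumicrine genes. Of 23 cascade genes, 15 were higher and 5 lower in the initial segment than the mean of the other 6 regions on the log scale at 3 months, beside 21.7% higher and 18% lower of all genes, with a median log2 difference of 0.31 against -0.15 for all genes. Against the caput alone 6 were higher and 5 lower (12.8% and 15% of all genes), and the summed level of the list, 1832 CPM in the initial segment, stood at 2069, 1839 and 1836 CPM for efferent ductules, caput and cauda, and at 917 CPM for the testis. Among the higher ones were Fgfr4, a fibroblast growth factor receptor (1.54 ± 0.20), the adaptor Shc1 (1.16 ± 0.09) and the kinase Araf (0.95 ± 0.10). Among the lower ones, named after their values were seen, were Fgfr2, Nras, Ksr1 and Mapk3, at -0.36 to -0.55.

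The target and feedback list moved further. Of 17 tested genes 12 were higher and 2 lower in the same comparison (21.7% and 18% of all genes), with a median of 1.39, led by Phlda1 (4.33 ± 0.10), the ephrin receptor Epha4 (3.52 ± 0.12), the early response gene Ier3 (2.72 ± 0.16) and Spry1, a Sprouty gene (2.44 ± 0.10). The 2 lower genes were Il17rd at -0.72 ± 0.10, a feedback inhibitor, and Myc at -0.71 ± 0.15, both named after their values were seen. Of 8 other lumicrine genes 6 were higher and 1, Gm1673 (-2.14 ± 0.24), lower, beside the same shares of all genes, and the 4 largest were Adam28 (12.96 ± 0.20), Cst8 (9.28 ± 0.16), the Nell2 paralogue Nell1 (3.19 ± 0.23) and the steroid reductase gene Srd5a2 (2.80 ± 0.09). Adam28 and Cst8 also stand in the list of initial segment markers.

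With age in the initial segment 2 of 23 cascade genes fell, Shc1 by 0.40 (SE 0.10, edgeR adjusted p = 0.0301) and Fgfr1 by 0.35 (SE 0.08, edgeR adjusted p = 0.0185), and none rose, beside 3.01% of all genes lower and 3.35% higher. In the same libraries, on the tract scale, the sum of 10 smooth muscle genes went from 3277 to 3950 CPM at 3 months to 2480 to 2924 CPM at 21 months, and that of 10 endothelial genes from 271.3 to 350 CPM to 227.8 to 260.6 CPM. The median gene of the region changed with age by -0.125 (log2) on this scale, which is not the scale of the tests. Of these 2 lists, 2 and 1 genes were called lower, and their part in the change of Shc1 and Fgfr1 was not tested. None of 16 target and feedback genes tested there was called by edgeR (4 at an unadjusted p under 0.05 and 1 by DESeq2). Of the 8 lumicrine genes Adam3, the sperm surface protein, fell by 2.64 (SE 0.56, edgeR adjusted p = 0.0114) and Nell1 fell by 1.30 (SE 0.29, edgeR adjusted p = 0.0161). Adam3 is itself one of the 20 germ cell genes, of which 13 fell in this region; their sum went from 131.0 to 273.8 CPM at 3 months to 73.5 to 119.3 CPM at 21 months, and the part of sperm or germ cell RNA in the change of Adam3 was not tested.

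Genes whose levels ran most like those of the 10 were sought over the 56 libraries among 17148 genes, as Pearson's r of log2(CPM + 1), given as a description since libraries of one region share their makeup. Ros1 ran closest to Lap3 (r = 0.988), Ovch2 to the marker Adam28 (0.988) and Dusp6 to Trak2 (0.965). Etv4 and Etv5 had the same closest gene, Krt23 (0.976 and 0.968), and each was among the 3 closest genes of the other (0.962). Nell2 ran closest to Pomt1 (0.976), Spry2 to Cblc (0.973), Ptpn6 to Ostf1 (0.966), Etv1 to Gcnt4 (0.950) and Spry4 to Bag3 (0.906). Between the 10 genes, Ros1 and Ovch2 had an r of 0.956 and Ovch2 and Etv4 of 0.911, whereas Ptpn6 had an r of 0.220 with Ros1 and of -0.07 with Etv5.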

How the data were processed

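Strand-specific total RNA libraries of 7 tract regions from 4 mice per age were sequenced as paired reads. Per the labels and the study's methods, the authors trimmed reads with cutadapt, aligned them to the mouse genome (mm10, GRCm38) with HISAT2 and counted them per gene with HTSeq; the deposited values are raw read counts. The strand setting and annotation release of the counting are not given in the sources used here. All columns were mapped to samples by name (0 were left over), and groups of 4 libraries were taken from the sample titles.

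A gene entered a fit when its counts summed to 10 or more there, and was tested with edgeR 4.0.16 (R 4.3.3, TMM, quasi-likelihood F-test, Benjamini-Hochberg over all genes tested, called at an adjusted p under 0.05). Age was tested within each region (8 libraries), regions within each age (28 libraries), and the difference of age effects over all 56. SE is the log2 difference divided by the square root of F. Region tests treat libraries as independent although regions of one age share mice, and p-values measure the spread between these 4 libraries. Alternatives were DESeq2 1.42.0, other scalings and filters, a replicate block, and leaving libraries out. Counts at an unadjusted p under 0.05 or called by DESeq2 are given without the share of all genes under the same rule. Scripts were tested on simulated data. Counting intervals cover counting error only.

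The 10 genes, the pathway lists and the marker lists were chosen with earlier results of these data known. Named besides the 10 genes were up to 4 called genes per pathway list with the largest change (age in the initial segment, and the initial segment against the other regions at 3 months) and the genes most correlated with each gene, by Pearson's r of log2(CPM + 1) among protein-coding genes with a mean of at least 1 CPM in a group. Some genes of the cascade list are not reported here. Positions come from GENCODE on GRCm38.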

Additional observations from a re-analysis of the deposited data

Results flagged for a closer look

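Of 139 groups of 4 libraries tested, 11 held 1 library far from the other 3 by Dixon's test, which flags about 1 group in 20 by chance. All values are CPM on the tract scale. For Ptpn6, replicate 3 of the 3-month cauda stood at 57.014 against 24.879 to 28.207, and replicate 4 of the 21-month vas deferens at 60.545 against 30.095 to 34.836; these are the libraries with leukocyte sums of 2261 and 731.6 CPM. For Etv1, replicate 3 of the 3-month caput, the library rich in initial segment markers, stood at 30.95 against 16.104 to 17.737, replicate 2 of the 21-month testis at 9.6719 against 7.4664 to 7.6605, and replicate 2 of the 21-month cauda at 28.682 against 14.242 to 15.914. For Etv4, replicate 4 of the 3-month vas deferens stood at 5.7435 against 4.1246 to 4.3038, and replicate 4 of the 21-month corpus at 0.35526 against 1.0543 to 1.1881.

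For Ovch2, replicate 3 of the 21-month initial segment stood at 2390.6 against 2151.5 to 2176.3, and replicate 1 of the 21-month corpus at 5.6401 against 3.0159 to 3.4105. For Nell2, replicate 1 of the 21-month initial segment stood at 0.64561 against 0 to 0.06685, a difference of 11 counts against at most 1. For Dusp6, replicate 4 of the 3-month efferent ductules stood at 23.559 against 32.259 to 33.444. The efferent ductule libraries with initial segment genes are a pair, so this test, which looks for a single library, did not mark them.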

How the results depend on the processing

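The counts of the 10 genes called between regions, and of steps in the order of regions, stayed within 1.5 times under the alternatives run (22 to 37 steps at 21 months and 27 to 37 at 3 months), whereas calls with age often moved. Of 271 alternative values for all these counts, 244 were equal to the main count or within 1.5 times of it, 15 rose further and 12 fell further. In the efferent ductules the count of 1 became 5 with DESeq2, 4 with all 56 libraries in one fit or with an unadjusted p and a 1.5-fold change, 3 with library size only or with no filter, 0 with edgeR's filterByExpr, which left Ovch2 untested, 2 without aged replicates 2 and 3 (chosen after seeing the data, with Etv5 turning from 1.58 to -0.45), and 0 to 5 when single libraries were left out, 0 without any 1 of the 4 young ones, 5 without aged replicate 1 and 3 without aged replicate 4. In the corpus the count of 1 became 0 with all libraries in one fit or library size only, and ran from 0 to 1 without single libraries. In the vas deferens it became 2 with DESeq2 or library size only and ran from 1 to 3 without single libraries, the 3 without aged replicate 4; without young replicate 4 the call on Ptpn6 was lost (edgeR adjusted p = 0.0531) while the count stayed at 1. In the initial segment the 0 became 1 with DESeq2 and ran from 0 to 1 without single libraries, the 1 being Etv1 without young replicate 2 (0.28, edgeR adjusted p = 0.0433). In the caput it ran from 0 to 1, and the test of the difference of age effects went from 0 to 2 with an unadjusted p and a 1.5-fold change. The cause of these moves was not tested. For most of these alternatives the share of all genes called is not given here, so their counts have no matching share. Nell2 lost its call between initial segment and caput without replicate 4 at 3 months and without replicates 2, 3 or 4 at 21 months. Same-numbered libraries of one age deviated together little (mean r 0.0359 at 3 months and 0.00469 at 21 months), so the numbers were not taken as pairs; the replicate block left each count of the 10 genes as it was, moved the steps that differ at 21 months from 25 to 23, and over all genes brought the calls with age to 632 from 1813 (efferent ductules), to 1227 from 738 (corpus), to 91 from 33 (cauda) and to 276 from 169 (testis). Ovch2 outside the initial segment and caput, and Nell2 in the initial segment, rest on few counts.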

Other observations

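Of the 17 ERK target and feedback genes tested for age in the vas deferens, 6 rose and 1 fell, beside 19.9% of all genes called there (11.4% higher). In the same region 16 of 20 leukocyte and 5 of 10 smooth muscle genes rose and 5 of 10 endothelial genes fell, and their part in these values was not tested. Egr1, a zinc finger transcription factor, rose by 3.69 ± 0.58 (log2 ± SE), Fosl1 by 3.47 ± 0.83, Fos by 2.91 ± 0.60 and Myc by 1.35 ± 0.21. Of the feedback genes, Dusp7 rose by 0.45 ± 0.10 and Spred2 by 0.42 ± 0.08, while Spred1, a feedback inhibitor, fell by 0.46 (SE 0.07). The edgeR adjusted p ran from 0.00203 to 0.0148 for all of these genes. In the corpus Fos rose by 1.58 ± 0.22, Egr1 by 1.04 ± 0.19 and Dusp5 by 0.38 ± 0.10, beside 1.5% of all genes higher there. In the caput Egr1 fell by 1.14 (SE 0.19; edgeR adjusted p = 0.00431) and Dusp7 by 0.54 (SE 0.11), in the efferent ductules Epha4 fell by 1.08 (SE 0.27), and in the testis Egr1 rose by 0.77 ± 0.17 (edgeR adjusted p = 0.0354). Of all genes, 8.14%, 6.99% and 0.563% were called with age in these 3 regions. Among marker genes of the caput, 7 of 10 smooth muscle genes fell and 6 of 20 leukocyte genes rose, and their part in these values was not tested. In the cauda none of 16 genes of the list was called by edgeR (3 at an unadjusted p under 0.05 and 2 by DESeq2). These genes were named after their values were seen.

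Gm45040, an antisense gene that overlaps Ovch2, rose with age in the initial segment by 3.07 ± 0.29 (log2 ± SE, edgeR adjusted p = 5.08e-05), from 0.239 to 0.516 CPM in the 4 young libraries to 2.76 to 3.86 CPM in the 4 aged ones on the tract scale, with no overlap, while Ovch2 itself was at -0.01 ± 0.08. It was chosen after its values were seen. Its part in the counts of Ovch2 (mean 2223 CPM in the aged initial segment) was not tested. The strand setting of the counting is not given in the sources used here, so the counted levels cannot decide this.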
